A study of Mus musculus with 12 samples.

Results

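The genes described are 8 hepatic targets of the nuclear receptor PPAR alpha that serve the fasting response and fatty acid oxidation: Fgf21, Pdk4, Angptl4, Cpt1a, Ehhadh, Vnn1, Hadha and Acadm. They are 8 of the 18193 genes with a probe set of a single gene symbol in the platform annotation. Each gene was read from its brightest probe set, by the mean of the 12 arrays, and all 8 passed the filter on low values. The 8 genes have 12 probe sets in all, and the 4 others, of Angptl4, Cpt1a and Vnn1, served as a check.

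The samples are livers of male C57BL6J mice taken at 30 weeks of age, with 1 Affymetrix array per mouse and 3 mice in each of 4 groups. Penicillin high-fat mice drank water with penicillin at 6.7 mg/L and ate a diet with 45% of its energy as fat. Control high-fat mice ate the same diet and drank water without antibiotic. Penicillin chow mice had the penicillin water with chow of 13.5% fat energy, and control chow mice had that chow and no antibiotic. All mice began on chow, and the high-fat groups were moved to their diet at 17 weeks. Single livers are named by group and replicate number, as in penicillin high-fat 1. The labels used here say neither whether the mice had fed before the livers were taken nor at what time of day this was done. The design asks what low-dose penicillin does to hepatic expression on each diet, and what the high-fat diet does with and without penicillin.

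PPAR alpha is activated by fatty acids, pairs with the retinoid receptor RXR and binds response elements made of paired AGGTCA-like motifs. In liver it is known as the main switch to fat burning during fasting, when fatty acids arrive from adipose tissue. Its targets carry fatty acids into mitochondria and peroxisomes, oxidise them, spare glucose and send hormonal signals to other organs. Several of these targets answer to other regulators as well. Fgf21 is also a target of the stress factor ATF4, Pdk4 of glucocorticoids and FOXO1, and Angptl4 of the other PPAR receptors and of hypoxia.

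Promoter sequence for 6 of the 8 genes was taken from RefSeq (build GRCm38.p6), as the 250 bases before an annotated start. For Cpt1a that start lies inside the gene span given below: its stretch is chr19:3323051-3323300 on the plus strand. Angptl4 and Vnn1 were not matched. Fgf21 and Pdk4 are shown because they had the largest differences between groups, and Acadm because it was the oxidation enzyme whose difference passed the test. The Fgf21 stretch is chr7:45615491-45615740, that of Pdk4 chr6:5496279-5496528 and that of Acadm chr3:153944644-153944893, all on the minus strand and written in the direction of transcription. Capitals mark matches to any of 5 searched motifs.
Fgf21: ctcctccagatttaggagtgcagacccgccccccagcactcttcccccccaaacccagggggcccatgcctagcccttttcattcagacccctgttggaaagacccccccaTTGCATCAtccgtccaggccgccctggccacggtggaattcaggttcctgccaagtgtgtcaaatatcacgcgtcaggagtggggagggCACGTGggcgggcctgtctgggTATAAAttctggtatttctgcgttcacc
Pdk4: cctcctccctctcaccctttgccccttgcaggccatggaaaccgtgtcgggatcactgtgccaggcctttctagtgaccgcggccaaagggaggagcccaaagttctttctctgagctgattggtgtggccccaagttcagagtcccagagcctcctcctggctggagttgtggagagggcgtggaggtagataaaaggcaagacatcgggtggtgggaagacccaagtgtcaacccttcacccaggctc
Acadm: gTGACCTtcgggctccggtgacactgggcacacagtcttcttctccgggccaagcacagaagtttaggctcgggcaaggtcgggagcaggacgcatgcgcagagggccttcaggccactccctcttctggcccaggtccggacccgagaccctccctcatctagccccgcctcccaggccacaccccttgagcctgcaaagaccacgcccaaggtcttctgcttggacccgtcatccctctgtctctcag

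The motifs, searched on both strands, were the nuclear receptor core AGGTCA, a direct repeat of 2 copies of AGGNCA with any 1 base between them, the C/EBP-ATF composite site TTGCATCA, the E-box CACGTG and the TATA box TATAAA. A repeat with T in place of an N also counts as a match to the core. None of the 6 sequences held the direct repeat, which was present in 0.34% of 32851 promoter stretches of the same length. The Fgf21 stretch held TTGCATCA at positions -139 to -132 from the start, against 0.79% of all stretches. It also held CACGTG at -50 to -45 and TATAAA at -28 to -23, found in 6.02% and 12.37% of all stretches. The receptor core occurred in Acadm at -249 to -244 and in Cpt1a at -94 to -89, in both on the opposite strand as TGACCT. It was found in 14.02% of all stretches. The Cpt1a positions count from a start inside the gene span. The Pdk4 stretch held none of the 5 motifs. These are letter matches in a short window and do not show binding.

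The arrays of a group correlated at 0.985 to 0.995, and the first principal component, with 36.3% of the variance, separated the diets. Penicillin chow 1 stood apart on the second component, at -30.1 against -5.32 to 10.6 on the other arrays, and had the highest mean of 6 acute-phase genes, at log2 12.6 against 9.56 to 11.4. For the 18S control probe sets the mean signal was 11.81 in penicillin high-fat 2 and 11.76 and 11.77 in penicillin chow 2 and 3, with at least 12.7 on the other 9 arrays. A clock score, the mean of Dbp, Per1, Per2, Per3 and Nr1d1 minus that of Arntl, Clock and Npas2, reached its lowest value, -1.71, in penicillin high-fat 1, and ranged from -0.89 to 0.81 on the remaining 11. The mean of the hepatocyte markers lay between 13.98 and 14.11 on every array. Of the 8 tested, 1 was called lower on high-fat diet in penicillin mice, against 1.89% of all genes. Of the adipocyte markers Adipoq and Lep, no array exceeded log2 3.58 and 4.46, under the filter value of 5.0. Of the 2 adipocyte markers tested, Fabp4 rose on high-fat diet in penicillin mice by 1.35 ± 0.23 (adjusted p = 0.00560) and differed by 0.86 ± 0.23 in control mice (adjusted p = 0.105). Retn, between 6.12 and 6.46 on all arrays, differed by -0.18 ± 0.09 and -0.06 ± 0.09 (adjusted p = 0.244 and 0.830). The muscle marker Acta1 read 7.40 in control high-fat 3 and 7.82 in penicillin high-fat 3, against 5.29 to 5.80 elsewhere. Ckm read 6.44 and 6.89 in these 2 livers, against 6.04 to 6.35 elsewhere. Mb lay between 5.96 and 6.19 on all arrays. Of these 3 muscle markers 0 passed for high-fat diet in either kind of mouse. Macrophage markers passed as higher on high-fat diet for 5 of 8 genes in penicillin mice and 0 of 8 in control mice. Endothelial and stellate markers did so for 3 of 6 and 2 of 6 in penicillin mice. Of all genes, 6.43% were called higher in penicillin mice and 0.653% in control mice. The mean log2 level of the 8 macrophage markers ran from 8.95 to 9.63 in penicillin high-fat livers, 9.54 to 9.60 in control high-fat livers, 8.33 to 8.94 in penicillin chow livers and 9.04 to 9.16 in control chow livers. Averaged over both treatments, high-fat diet called 6 of 8 macrophage, 5 of 6 endothelial and 3 of 6 stellate markers higher. The share over all genes was 9.63%. The part of these cells, of adipocytes and of muscle in the diet differences of the 8 genes was not tested. In whole liver a change in the share of a cell type and a change in RNA per cell cannot be told apart.

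High-fat diet raised Fgf21, Pdk4, Vnn1 and Acadm in penicillin mice, by 1.32-fold to 5.78-fold, and Vnn1 in control mice, by 3.05-fold. On high-fat diet, 4 of the 8 genes stood higher in every penicillin mouse than in every control mouse: Pdk4, Vnn1, Ehhadh and Acadm. None of the 8 passed the test for penicillin on high-fat diet, in which 0.341% of the 13788 genes tested were called, and 9.5% of genes had all penicillin livers above all controls. At an unadjusted p under 0.05 the count was 5 of 8, against 10.1% of all genes. The median difference of the 8 genes was 0.30 log2 units, and that of all genes -0.00051. On chow 0 of 8 were called, where 0.00725% of genes were, 0 of 8 had all penicillin livers above all controls, against 4.79% of genes, and 1 of 8, Vnn1, had an unadjusted p under 0.05, against 7.62%. High-fat diet called 4 of the 8 higher in penicillin mice, against 6.43% of all genes called higher, and 1 of the 8 higher in control mice, against 0.653%. None was called lower in either. Penicillin chow 1 stands apart on the second component, and penicillin high-fat 1 by its clock score and not on that component. Without these 2 arrays that stand apart, a choice made after seeing the data, the count in penicillin mice was 2, Fgf21 and Pdk4. All high-fat livers lay above all chow livers for 6 of 8 genes in penicillin mice, against 15.6% of genes, and for 5 of 8 in control mice, against 12.4%. At an unadjusted p under 0.05 the diet gave 6 of 8 in penicillin mice, against 24.5% of genes, and 5 of 8 in control mice, against 15.1%. At an adjusted p under 0.10 Angptl4 joined Vnn1 in control mice, 2 of 8, against 2.8% of genes. In penicillin mice Ehhadh joined the 4 at this threshold (adjusted p = 0.0565), where 1933 of the 13788 genes were called. The interaction, which asks whether the effect of penicillin differed between diets, called 0 of 8 (0.0435% of all genes), and 2 of 8, Pdk4 and Ehhadh, had an unadjusted p under 0.05, against 6.11%. Adjusted p-values throughout come from limma with the Benjamini-Hochberg adjustment over all 13788 genes, with n = 3 mice per group, and errors of differences are standard errors of that fit. The comparisons share groups and 1 residual variance, so their calls are not independent of each other.

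**Figure D1:**
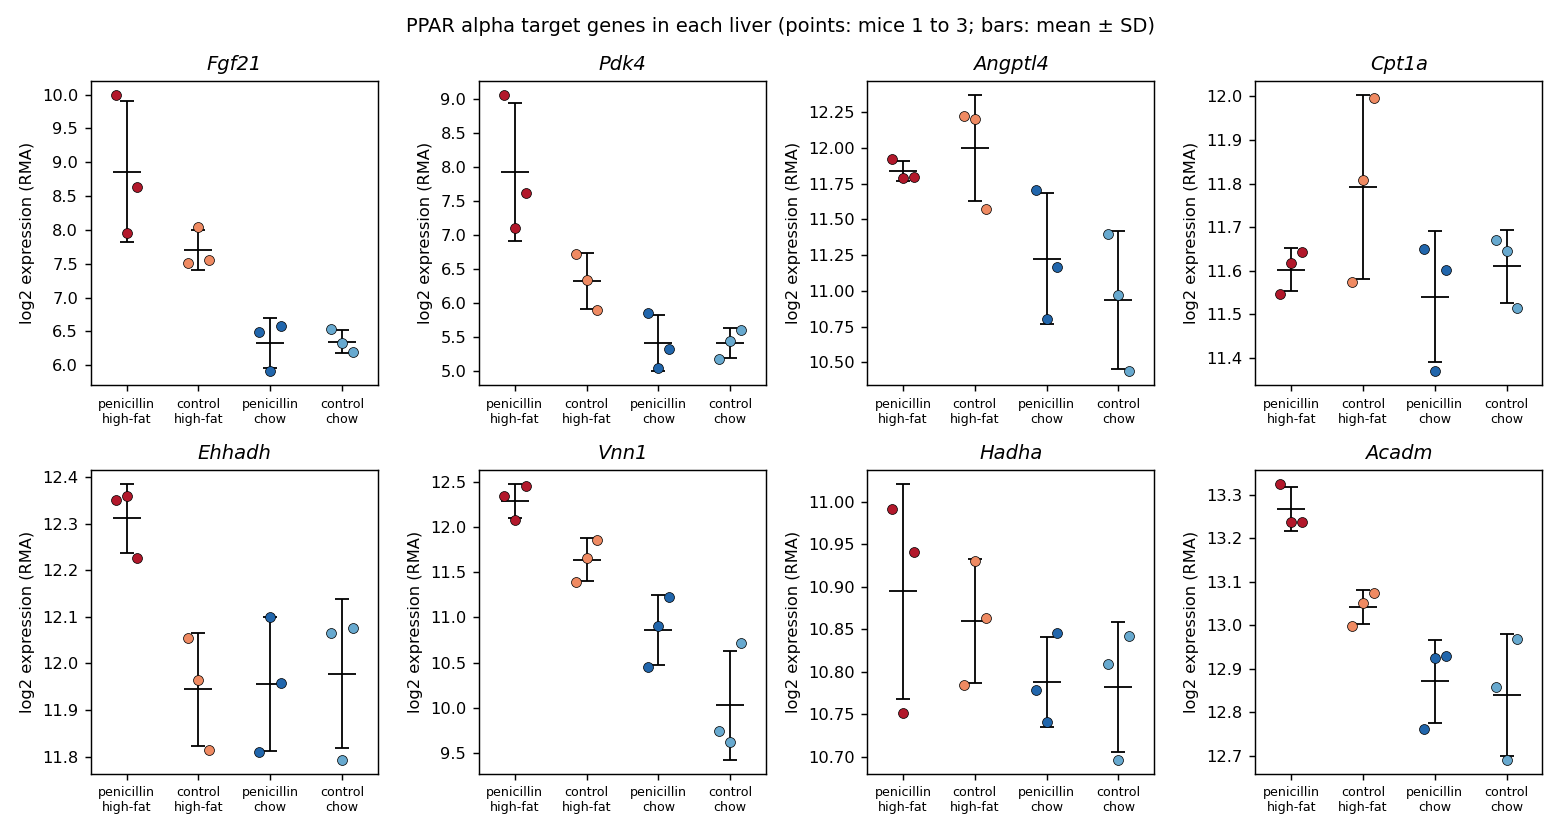
Log2 expression (vertical axis) of the 8 PPAR alpha target genes in each of 12 livers, with penicillin high-fat, control high-fat, penicillin chow and control chow mice from left to right. Points are mice 1 to 3, and bars are the mean ± SD of n = 3. Fgf21 and Pdk4 reach their highest values, 9.997 and 9.06, in penicillin high-fat 1, while Hadha spans only 10.70 to 10.99 over all livers.

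Fgf21 encodes a hormone that liver secretes in fasting, in ketogenic states and under protein or cell stress, and that acts on adipose tissue and brain. The gene lies on chromosome 7 at 45613890 to 45615490 (GRCm38.p6). Its log2 expression was 9.997, 7.95 and 8.63 in penicillin high-fat 1, 2 and 3, and 7.52, 8.04 and 7.56 in control high-fat 1, 2 and 3. On chow it was 6.49, 5.91 and 6.59 in the 3 penicillin mice and 6.54, 6.32 and 6.19 in the 3 control mice. All high-fat livers thus lay above all chow livers, and the 2 high-fat groups overlapped because penicillin high-fat 2 lay below control high-fat 2. The group means were 8.86 ± 1.04, 7.71 ± 0.29, 6.33 ± 0.36 and 6.35 ± 0.18 (SD, n = 3 each) in penicillin high-fat, control high-fat, penicillin chow and control chow mice.

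High-fat diet raised Fgf21 in penicillin mice by 2.53 ± 0.39 log2 units (5.78-fold, adjusted p = 0.00352). In control mice its difference was 1.35 ± 0.39 (2.56-fold), without overlap between the groups, and did not pass (adjusted p = 0.127). It passed there with array weights (adjusted p = 0.0487), in a fit on the control mice only (0.0205) and without penicillin high-fat 1 (0.0286), a mouse that enters this comparison through the shared variance. Penicillin gave a difference of 1.15 ± 0.39 on high-fat diet (2.23-fold, 95% interval 0.29 to 2.02, adjusted p = 0.330) and of -0.02 ± 0.39 on chow (95% interval -0.89 to 0.84, adjusted p = 0.994). The value on high-fat diet was 0.59 without penicillin high-fat 1 (adjusted p = 0.713) and 1.61 without penicillin high-fat 2 (0.0639). Adding the clock score as a covariate gave 0.92 (adjusted p = 0.557). The interaction was 1.18 ± 0.56 (adjusted p = 0.833).

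Pdk4 encodes a kinase that shuts off the pyruvate dehydrogenase complex and so spares glucose when fat is burned. It lies on chromosome 6 at 5483351 to 5496278. In log2 units it measured 9.06, 7.10 and 7.61 in penicillin high-fat 1, 2 and 3, against 6.72, 6.33 and 5.89 in control high-fat 1, 2 and 3. Every penicillin liver stood above every control liver on this diet. On chow the values were 5.85, 5.04 and 5.32 in penicillin mice and 5.17, 5.43 and 5.61 in controls, which overlap fully and sit close to the filter value. The group means were 7.92 ± 1.02, 6.31 ± 0.41, 5.40 ± 0.41 and 5.40 ± 0.22 (SD, n = 3 each) in penicillin high-fat, control high-fat, penicillin chow and control chow livers.

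The rise of Pdk4 on high-fat diet in penicillin mice was 2.52 ± 0.41 log2 units (5.74-fold, adjusted p = 0.00443). In control mice the difference was 0.91 ± 0.41 (1.88-fold) with no overlap, and it did not pass (adjusted p = 0.319). Penicillin on high-fat diet gave 1.61 ± 0.41 (3.05-fold, 95% interval 0.72 to 2.50), the largest penicillin difference of the 8 genes in this comparison, with an adjusted p of 0.147. That difference passed at an adjusted p of 0.0451 with array weights, 0.0197 with the 18S signal as a covariate and 0.0436 without penicillin high-fat 2, and was 1.04 without penicillin high-fat 1 (adjusted p = 0.337). Adding the clock score as a covariate gave 1.17 (adjusted p = 0.232). The chow difference was -0.00084 ± 0.41 (adjusted p = 1.00), and the interaction was 1.61 ± 0.58 (95% interval 0.35 to 2.87, adjusted p = 0.718).

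The gene most like Fgf21 over the 12 arrays, of all those tested, was Pdk4, at Pearson r = 0.952, ahead of Sema5b at 0.951. The genes most like Pdk4 were Cdkn1a, the cell cycle inhibitor p21, at 0.966 and Spg21 at 0.957. These correlations over 12 arrays are descriptions, and the arrays share their diet groups and their joint normalization. As deviations from group means, Fgf21 and Pdk4 correlated at r = 0.809 over the 12 livers and at 0.187 over the 9 livers outside the penicillin high-fat group. Penicillin high-fat 1, the liver with the lowest clock score, had the highest value of both, while in control chow mice the order of the 3 livers was opposite for the 2 genes. Of the 3 other kinases of the family, high-fat diet raised Pdk1 in penicillin mice by 0.51 ± 0.14 (adjusted p = 0.0444), and Pdk2 and Pdk3 did not pass. Of all genes 6.43% were called higher there. In control mice 0 of the 3 passed, with group means of Pdk1 of 10.32 on chow and 10.57 on high-fat diet.

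**Figure D2:**
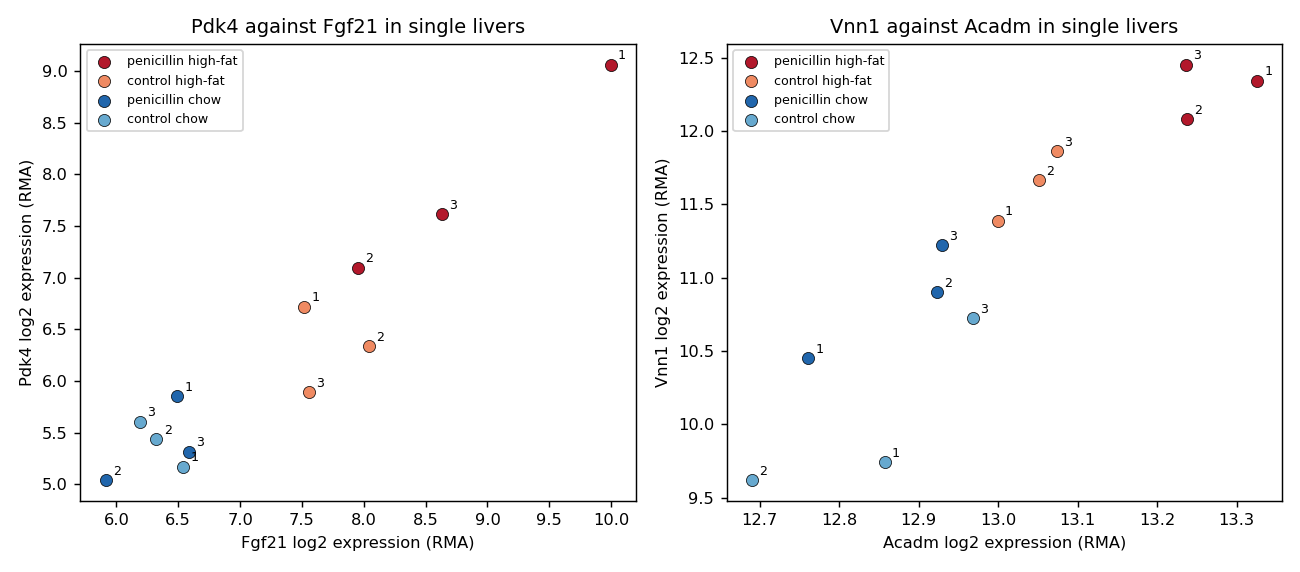
Log2 expression of Pdk4 against Fgf21 (left) and of Vnn1 against Acadm (right) in single livers, numbered by replicate and coloured by group. The 6 chow livers form 1 cloud at the low end on the left, while on the right the penicillin high-fat livers occupy the upper corner with Vnn1 between 12.08 and 12.45.

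Angptl4 encodes a secreted inhibitor of lipoprotein lipase, which limits uptake of triglyceride from the blood. It lies on chromosome 17 at 33774900 to 33781575. Its probe set read 11.92, 11.79 and 11.80 in penicillin high-fat mice, against 12.22, 12.20 and 11.57 in control high-fat mice, and these ranges overlap. On chow it was 11.71, 10.80 and 11.16 in penicillin mice and 11.40, 10.97 and 10.44 in controls. High-fat livers lay above chow livers within each treatment. The diet difference was 0.61 ± 0.26 in penicillin mice (adjusted p = 0.177) and 1.06 ± 0.26 in control mice (2.09-fold, adjusted p = 0.0830). The value in control mice passed without penicillin chow 1 (adjusted p = 0.0415). Averaged over both treatments, Angptl4 rose by 0.84 ± 0.19 on high-fat diet (adjusted p = 0.0128).

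Without the 3 arrays of low 18S signal that average was 0.61 and did not pass (adjusted p = 0.110), in a fit that leaves penicillin chow 1, the array that stands apart, as the 1 mouse of its group and takes its spread from the other groups. Penicillin differences of Angptl4 were -0.16 ± 0.26 on high-fat diet (95% interval -0.74 to 0.41) and 0.29 ± 0.26 on chow (95% interval -0.29 to 0.87). Neither passed (adjusted p = 0.891 and 0.842). A further probe set of Angptl4 lay between 2.93 and 3.45 on all arrays, under the filter value, and at this level is a weak check. Fitted in place of the main probe set, it gave no diet call. Its differences were -0.04 in penicillin mice and 0.09 in control mice (adjusted p = 0.897 and 0.819). Of the angiopoietin-like relatives, 2 of 3 were tested, and Angptl6 rose on high-fat diet in penicillin mice by 0.51 ± 0.11 (adjusted p = 0.0173). Of all genes 6.43% were called higher there. In control mice 0 of the 2 passed, with group means of Angptl6 of 8.42 on chow and 8.90 on high-fat diet.

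Vnn1 encodes vanin-1, a pantetheinase that releases pantothenate, the vitamin from which coenzyme A is made, together with cysteamine. It lies on chromosome 10 at 23894688 to 23905344. Vnn1 stood at log2 12.34, 12.08 and 12.45 in penicillin high-fat mice, against 11.39, 11.66 and 11.86 in control high-fat mice. On chow it was 10.45, 10.90 and 11.22 in penicillin mice, against 9.74, 9.62 and 10.72 in controls. Penicillin high-fat livers were thus highest, then those of control high-fat mice, then penicillin chow, with control chow lowest, and only the 2 chow groups overlapped, through control chow 3. The group means in that order were 12.29 ± 0.19, 11.64 ± 0.24, 10.86 ± 0.39 and 10.03 ± 0.60 (SD, n = 3 each).

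Vnn1 was called for high-fat diet in both kinds of mice: it rose by 1.43 ± 0.27 log2 units in penicillin mice (2.70-fold, adjusted p = 0.00857) and by 1.61 ± 0.27 in control mice (3.05-fold, adjusted p = 0.0230). In control mice the call was lost without control chow 1 (adjusted p = 0.0902) or 2 (0.0791) and without control high-fat 1 (0.0648) or 2 (0.107). In penicillin mice it was lost without the 2 arrays that stand apart, penicillin chow 1 and penicillin high-fat 1 (adjusted p = 0.0647). Penicillin differences were 0.65 ± 0.27 on high-fat diet (1.57-fold, 95% interval 0.06 to 1.24, adjusted p = 0.430) and 0.83 ± 0.27 on chow (1.78-fold, 95% interval 0.24 to 1.42, adjusted p = 0.530). Averaged over the diets the difference was 0.74 ± 0.19 and did not pass (adjusted p = 0.171). That average passed with array weights (0.91, adjusted p = 0.0311) and without control chow 3 (0.91, adjusted p = 0.0348).

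The other Vnn1 probe set gave a penicillin difference of 0.69 on high-fat diet and 0.87 on chow. With it the rise on high-fat diet was 1.81 in penicillin mice (adjusted p = 0.00369) and 2.00 in control mice (adjusted p = 0.0103). Vnn3, another vanin, rose on high-fat diet by 0.73 ± 0.15 in penicillin mice (adjusted p = 0.0119) and by 0.76 ± 0.15 in control mice (adjusted p = 0.0423). Its penicillin differences were -0.07 on high-fat diet and -0.04 on chow. The genes most like Vnn1 over the 12 arrays were Elovl2, an elongase of polyunsaturated fatty acids, at r = 0.951 and Morc4 at 0.948.

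**Figure D3:**
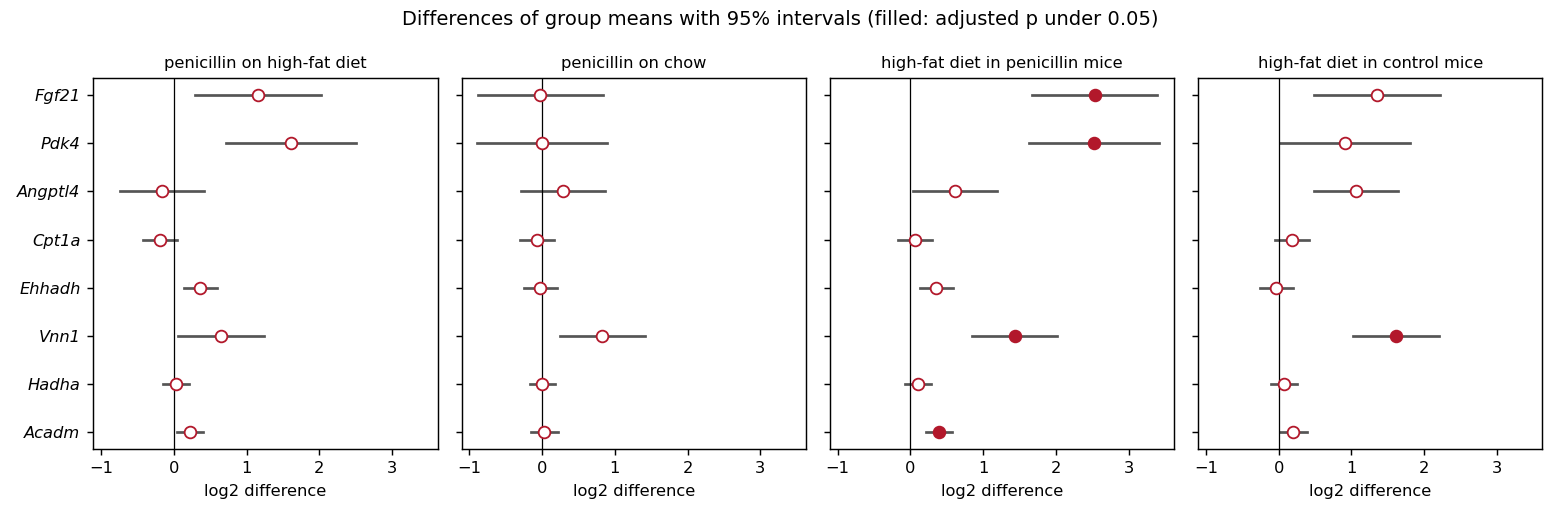
Differences of group means in log2 units (horizontal axis) for the 8 genes in 4 comparisons, with 95% intervals from the limma fit (n = 3 mice per group); filled points have an adjusted p under 0.05. The filled points are Fgf21, Pdk4, Vnn1 and Acadm for high-fat diet in penicillin mice and Vnn1 for high-fat diet in control mice.

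Of the 3 genes of mitochondrial oxidation, Acadm passed the test for high-fat diet, and Cpt1a and Hadha did not. Acadm encodes medium-chain acyl-CoA dehydrogenase, which opens each turn of oxidation for fatty acids of medium length, and lies on chromosome 3 at 153922353 to 153944643. Acadm measured 13.33, 13.24 and 13.24 in penicillin high-fat mice, against 13.00, 13.05 and 13.07 in control high-fat mice. On chow it was 12.76, 12.92 and 12.93 in penicillin mice and 12.86, 12.69 and 12.97 in controls. Each high-fat group lay above both chow groups, and the penicillin high-fat livers were above all others.

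In penicillin mice Acadm rose on high-fat diet by 0.40 ± 0.08 (1.32-fold, adjusted p = 0.0144). The call was lost without penicillin high-fat 1 (0.37, adjusted p = 0.0639), with the clock score as a covariate (0.34, adjusted p = 0.0688) and without the 2 arrays that stand apart (0.31, adjusted p = 0.113). It was also lost in a fit on the 2 groups compared only (adjusted p = 0.0508). The diet difference in control mice was 0.20 ± 0.08 (1.15-fold, adjusted p = 0.276). Penicillin gave 0.23 ± 0.08 on high-fat diet (95% interval 0.04 to 0.41, adjusted p = 0.365) and 0.03 ± 0.08 on chow (95% interval -0.15 to 0.21, adjusted p = 0.956). The genes most like Acadm were Cd81, a tetraspanin of the cell surface, at r = 0.967 and Syce2 at 0.964. Vnn1 and Acadm went together within groups at r = 0.836, as deviations from the group means.

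Cpt1a encodes the liver form of carnitine palmitoyltransferase 1, the gate through which long-chain fatty acids enter mitochondria, and lies on chromosome 19 at 3322326 to 3385735. Its level was 11.55, 11.62 and 11.64 in penicillin high-fat mice, against 11.58, 11.81 and 11.996 in control high-fat mice, and between 11.37 and 11.67 on chow, and all pairs of groups compared overlapped. Diet differences were 0.06 ± 0.11 in penicillin mice (95% interval -0.18 to 0.30) and 0.18 ± 0.11 in control mice (95% interval -0.06 to 0.42). Penicillin differences were -0.19 ± 0.11 on high-fat diet (95% interval -0.43 to 0.05) and -0.07 ± 0.11 on chow (95% interval -0.31 to 0.17), none of them past the test (adjusted p from 0.460 to 0.919).

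The other 2 probe sets of Cpt1a, both of the type whose probes may match further transcripts, gave -0.08 and 0.03 for penicillin on high-fat diet. The sign for this gene thus differed between probe sets. The gene most like Cpt1a was Bnip3, a mitochondrial protein of mitophagy, at r = 0.882, followed by Glt8d1 at 0.873. Of the other carnitine palmitoyltransferase 1 isoforms, 0 of 2 were tested.

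Hadha encodes the alpha subunit of the mitochondrial trifunctional protein, which carries out later steps on long-chain acyl-CoA, and lies on chromosome 5 at 30119423 to 30154980. Log2 values of Hadha were 10.99, 10.75 and 10.94 in penicillin high-fat mice, against 10.78, 10.93 and 10.86 in control high-fat mice. All 12 livers lay between 10.70 and 10.99, and every pair of groups compared overlapped. Diet differences were 0.11 ± 0.08 in penicillin mice (95% interval -0.07 to 0.28) and 0.08 ± 0.08 in control mice (95% interval -0.10 to 0.25). Penicillin differences were 0.04 ± 0.08 on high-fat diet (95% interval -0.14 to 0.21) and 0.01 ± 0.08 on chow (95% interval -0.17 to 0.18). The upper bounds of these 4 intervals reach at most 0.28 log2 units. Cox6a1, a subunit of cytochrome c oxidase, was most like it at r = 0.895, followed by Gem at 0.875.

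Ehhadh encodes the peroxisomal bifunctional enzyme, which carries out the middle steps of oxidation of very long-chain and dicarboxylic acids, and lies on chromosome 16 at 21761285 to 21787834. Ehhadh was measured at 12.35, 12.36 and 12.23 in penicillin high-fat mice, against 12.05, 11.96 and 11.81 in control high-fat mice. On chow it was 11.81, 12.10 and 11.96 in penicillin mice and 12.06, 11.79 and 12.08 in controls. The penicillin high-fat livers lay above all 9 others, whose groups overlapped.

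No Ehhadh difference passed. The difference was 0.36 ± 0.10 for high-fat diet in penicillin mice (1.28-fold, 95% interval 0.13 to 0.58, adjusted p = 0.0565) and -0.03 ± 0.10 in control mice (95% interval -0.26 to 0.19, adjusted p = 0.925). The first of these passed with median centring (adjusted p = 0.0464), with trend and robust variance (0.0370), without control chow 2 (0.0437) and without penicillin chow 2 (0.0496). Penicillin gave 0.37 ± 0.10 on high-fat diet (1.29-fold, 95% interval 0.14 to 0.59, adjusted p = 0.212) and -0.02 ± 0.10 on chow (adjusted p = 0.977). The interaction was 0.39 ± 0.15 (95% interval 0.07 to 0.71, adjusted p = 0.734). The genes most like Ehhadh were Clstn3, a calsyntenin, at r = 0.930 and Trip13 at 0.915.

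Averaged over both treatments, high-fat diet raised 5 of the 8 genes, Fgf21, Pdk4, Angptl4, Vnn1 and Acadm, where 9.63% of all genes were called higher. The differences were 1.94 ± 0.28, 1.72 ± 0.29, 0.84 ± 0.19, 1.52 ± 0.19 and 0.30 ± 0.06, with adjusted p between 0.00071 and 0.0128. Cpt1a at 0.12 ± 0.08, Hadha at 0.09 ± 0.06 and Ehhadh at 0.16 ± 0.07 did not pass (adjusted p = 0.312, 0.310 and 0.165). The median of the 8 differences was 0.57, and that of all genes -0.00845. Averaged over both diets, penicillin called 0 of 8, where 0.145% of genes were called, and 4 of 8 had an unadjusted p under 0.05, against 11.9% of all genes. With the 18S signal as a covariate the average of Pdk4 passed (1.25, adjusted p = 0.0408), beside 0.80 ± 0.29 without it (adjusted p = 0.302).

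Neither the receptor's transcript nor that of its partner passed the test for penicillin on either diet or for the diet in either kind of mouse. Ppara had log2 values of 11.68, 11.62 and 11.85 in penicillin high-fat and 11.90, 11.87 and 11.90 in control high-fat livers. These do not overlap, with the penicillin livers lower, as in 7.85% of genes, and the difference of -0.17 ± 0.12 did not pass (adjusted p = 0.682). Its partner Rxra stood at 10.79, 10.90 and 10.90 in penicillin high-fat livers, against 11.10, 11.10 and 11.11 in control high-fat livers. These do not overlap either, again with the penicillin livers lower. The Rxra difference, -0.24 ± 0.07, did not pass (adjusted p = 0.248). The coactivator Ppargc1a, which drives mitochondrial and fasting programmes, rose on high-fat diet in penicillin mice by 1.17 ± 0.21 (adjusted p = 0.00740) and differed by 0.89 ± 0.21 in control mice (adjusted p = 0.0760). It was the 1 of 9 tested receptor and cofactor genes called, where 6.43% of all genes were called higher in penicillin mice. Its penicillin difference was 0.22 ± 0.21 on high-fat diet.

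Further genes of fatty acid oxidation were counted from lists drawn up beside the 8 genes. In penicillin mice high-fat diet raised 6 of 14 mitochondrial genes, among them the dehydrogenase Acadl by 0.37 ± 0.07 (adjusted p = 0.0118), the isomerase Eci1 by 0.44 ± 0.09, the reductase Decr1 by 0.35 ± 0.08 and the electron transfer enzyme Etfdh by 0.36 ± 0.09. The list median was 0.20. It raised 4 of 11 peroxisomal genes, the acyl-CoA transporter Abcd2 by 1.98 ± 0.41 (adjusted p = 0.0140), the proliferation factor Pex11a by 0.69 ± 0.13, the isomerase Ech1 by 0.49 ± 0.07 and the thiolase Acaa1b by 0.35 ± 0.09. The list median was 0.22. Abcd2 lay between 4.81 and 6.47 on chow, near the filter value, which limits the precision of its difference. Of 4 ketogenic genes 2 were tested and both rose, Bdh1, which makes hydroxybutyrate, by 0.60 ± 0.07 (adjusted p = 0.00095) and the thiolase Acat1 by 0.35 ± 0.09 (adjusted p = 0.0426). In control mice 0 of these 14, 11 and 2 genes passed, with list medians of 0.11, 0.08 and 0.27. Of all genes tested, 6.43% were called higher in penicillin mice and 0.653% in control mice. The median of all genes was -0.00693 in penicillin and -0.00466 in control mice. Averaged over both treatments the counts were 6 of 14, 4 of 11 and 2 of 2, all higher, against 9.63% of all genes. That more genes passed in penicillin mice is not shown to be a difference between the mice: the interaction called 0 of these genes.

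Among 13 other tested PPAR alpha targets, 6 rose and 1 fell on high-fat diet in penicillin mice. Of all genes, 6.43% rose and 1.89% fell there. In control mice 3 of the 13 rose, against 0.653% of all genes. The list medians were 0.35 and 0.32. Txnip, an arrestin-like inhibitor of glucose uptake, rose by 1.14 ± 0.14 in penicillin and 0.79 ± 0.14 in control mice (adjusted p = 0.00090 and 0.0271). The lipase Mgll rose by 0.66 ± 0.11 and 0.54 ± 0.11 (adjusted p = 0.00551 and 0.0498), and in control mice the desaturase Fads2 rose by 0.77 ± 0.15 (adjusted p = 0.0449). Fads2 was not particular to control mice: in penicillin mice its group means were 11.40 on chow and 12.03 on high-fat diet. The member that fell was Acadsb, an enzyme of branched-chain amino acid breakdown, by 0.45 ± 0.08 in penicillin mice (adjusted p = 0.00558). The lipid droplet gene Cidec, which is shared with PPAR gamma, was the 1 gene of this list that passed for penicillin on high-fat diet, at 2.96 ± 0.39 (adjusted p = 0.00841), and it rose by 2.59 ± 0.39 on high-fat diet in penicillin mice (adjusted p = 0.00308). Of all genes 0.341% were called for penicillin on high-fat diet. Cidec read 5.17 to 5.78 in control high-fat livers, near the filter value, which limits the precision of its fold changes. On chow it was 7.04 in penicillin chow 1 and 4.73 to 5.51 in the other livers.

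**Figure D4:**
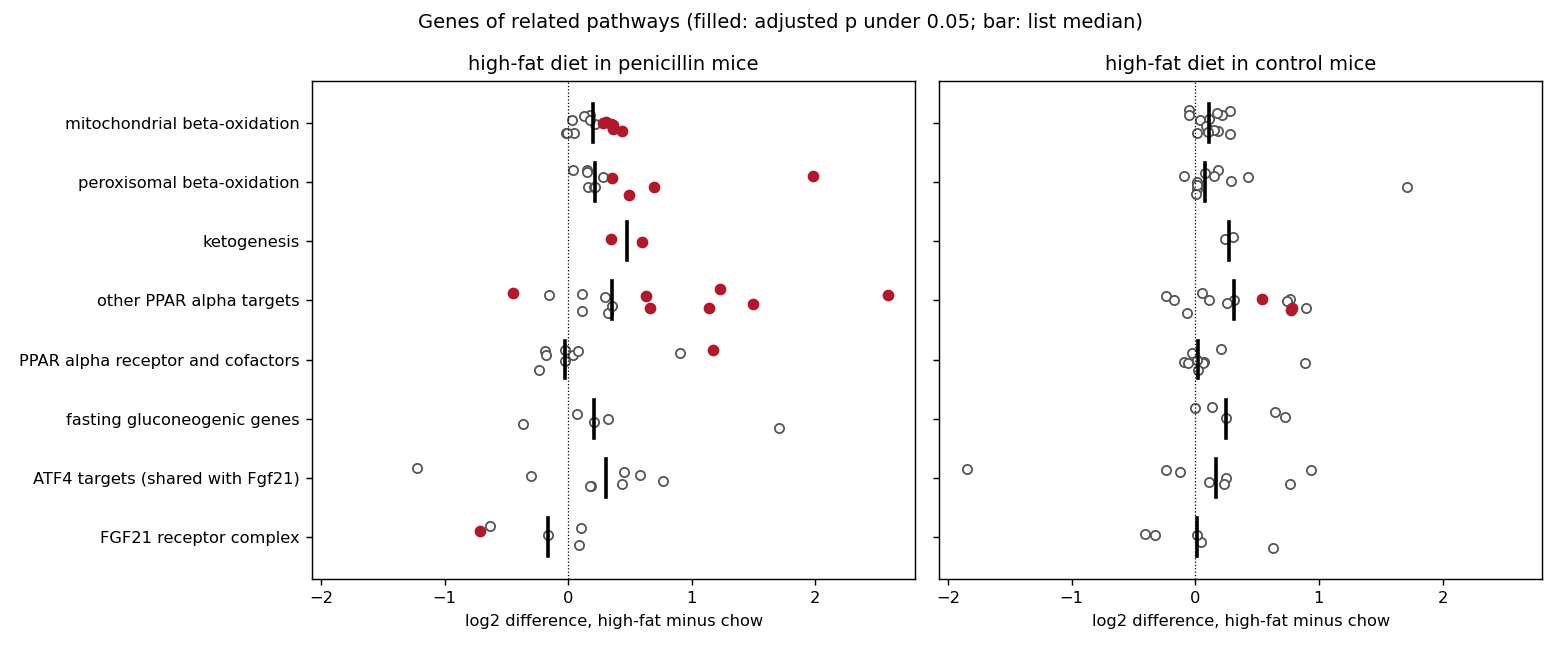
Log2 differences, high-fat minus chow (horizontal axis), for genes of 8 lists around PPAR alpha in penicillin mice (left) and control mice (right). Each point is 1 gene, filled where its adjusted p is under 0.05, and bars are list medians; 6 of 14 mitochondrial and 4 of 11 peroxisomal oxidation genes are filled on the left and 0 of each on the right.

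Other branches of the fasting programme were counted in the same way. Of 5 tested gluconeogenic fasting genes 0 passed for high-fat diet in either kind of mouse, with medians of 0.21 in penicillin and 0.25 in control mice. Averaged over both treatments 1 of the 5 rose, Fbp1, the enzyme fructose bisphosphatase, by 0.23 ± 0.05 (adjusted p = 0.00718). Of all genes 9.63% rose in this average. Of 8 ATF4 targets, which respond to amino acid shortage and share this regulator with Fgf21, 0 passed in either, with medians of 0.31 and 0.17. In the average of both treatments 2 of the 8 rose and 2 fell, where 9.63% of all genes rose and 4.85% fell. Those that rose were the stress genes Ddit3, by 0.68 ± 0.17, and Chac1, by 0.85 ± 0.23, and those that fell were asparagine synthetase, Asns, by 1.54 ± 0.32, and Atf4 itself, by 0.27 ± 0.07 (adjusted p from 0.00960 to 0.0284). Of the 5 genes of the FGF21 receptor complex, 0 rose and 1 fell on high-fat diet in penicillin mice, where 1.89% of all genes fell. That gene was the receptor Fgfr1, lower by 0.72 ± 0.12 (adjusted p = 0.00558), and 0 passed in control mice. In that average 2 of the 5 fell, Fgfr1 by 0.52 ± 0.09 (adjusted p = 0.00293) and Fgfr3 by 0.52 ± 0.15 (adjusted p = 0.0353). These genes of averaged calls were named after their values were seen. For penicillin on high-fat diet and for penicillin on chow, 0 genes passed in the oxidation, ketogenesis, gluconeogenesis, ATF4 and FGF21 receptor lists.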

How the data were processed

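Liver RNA was measured on Affymetrix 3′ arrays, 1 per mouse. The authors' deposited table gives log2 values of 45101 probe sets. Per the submitters' processing notes they were made with RMA in the affy package, and the sources used here give no versions. RMA equalises the arrays, so changes are relative to the bulk of genes. Array medians were 5.52 to 5.59.

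GEO's platform annotation gave names: 34945 probe sets had 1 symbol, 932 several and 9160 none, and 64 were controls. A gene table of GRCm38.p6 matched 34741 and changed 0 symbols. Genes above the 40th percentile (log2 5.0) on at least 3 arrays were tested, 13788 in all, with limma 3.58.1 in R 4.3.3: 4 group means on 12 arrays, eBayes, Benjamini-Hochberg, adjusted p under 0.05. The fit was tested on simulated data. Replicates are biological per the labels, and 3 arrays per group limit the precision.

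The members, lists and tests were chosen with earlier results of these data known. Named were the 8 genes, up to 4 called genes per list and comparison by smallest p, Ppara, Rxra and Ppargc1a, and per gene the 2 most like it. Replicate numbers did not pair the livers. Alternatives covered filter, probe set, scaling, weights, variance model, samples, block, threshold and covariates.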

Additional observations from a re-analysis of the deposited data

How the results depend on the processing

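Of 1404 values of single genes under alternatives, 1313 kept their direction and side of the threshold, 11 lost a call, 18 gained one and 62 changed direction. Part of this was fixed in advance, so the share that kept direction does not measure robustness. The difference itself cannot change with the filter, the variance model, the block, the threshold or a fit on the groups compared only. Nor can it change when an array outside the comparison is left out. None of the direction changes touched a called value, and the lowest adjusted p among them was 0.446, and the largest value among them had a size of 0.64; the cause was not tested. The count of genes called among the 8 was 4 for high-fat diet in penicillin mice and 2 without the 2 arrays that stand apart. Other settings moved it by 1 gene. Acadm was lost with the clock score as a covariate and in a fit on the 2 groups compared only. Ehhadh was gained with median centring, with trend and robust variance and at an adjusted p under 0.10. For high-fat diet in control mice it was 1, and 3 with array weights, 2 in a fit on the groups compared only, 2 at an adjusted p under 0.10 and 2 without the 2 arrays that stand apart. For penicillin on high-fat diet it was 0, and 1 with array weights and with the 18S covariate. For penicillin averaged over the diets it was 0, and 1 with each of the same 2 settings. Leaving out each array in turn gave 3 to 5 for high-fat diet in penicillin mice, 0 to 2 in control mice and 5 to 5 averaged, and 0 to 1 for penicillin on high-fat diet, 0 to 0 on chow, 0 to 1 averaged and 0 to 0 for the interaction. The count of all genes called at an adjusted p under 0.05 also varied: it was 21 to 183 for penicillin on high-fat diet (47 as reported), 0 to 4 on chow (1), 2 to 179 averaged (20), 0 to 15 for the interaction (6), 21 to 571 for high-fat diet in control mice (124), 482 to 1628 in penicillin mice (1147) and 1356 to 2768 averaged (1997). These ranges leave out the fit without 3 arrays of low 18S signal, which holds 1 penicillin chow mouse, penicillin chow 1, and assumes that it varies like the other groups; its counts were 148, 251, 416, 24, 181, 1112 and 1735 in the same order. A fit with the replicate number as a block called the same genes of the 8 in each comparison and gave 35, 0, 2, 2, 70, 1022 and 1720 genes in all, in the order just given; deviations of same-numbered livers correlated as low as -0.230 and 2 of 12 arrays correlated best with their own number, so the numbers were not taken as pairs. Fits without 3 arrays of low 18S signal or without 2 that stand apart were chosen after seeing the data. With the probe set of highest variance, also the fainter other Cpt1a probe set, the direction turned for penicillin on high-fat diet, Cpt1a 0.0318 and for penicillin on chow, Cpt1a 0.0878 and for penicillin averaged over diets, Cpt1a 0.0598. With cyclic loess or median centring the direction turned for penicillin on chow, Pdk4 0.0149, Pdk4 0.0108. With array weights the direction turned for penicillin on chow, Ehhadh 0.0136 and for penicillin averaged over diets, Angptl4 -0.0687. With 18S signal as covariate the direction turned for penicillin on chow, Fgf21 0.37, Pdk4 0.64, Acadm -0.0135. With clock score as covariate the direction turned for penicillin on chow, Fgf21 0.0629, Pdk4 0.16, Ehhadh 6.97e-05 and for interaction of penicillin and diet, Cpt1a 0.000692, Hadha -0.0134. Without 3 arrays of low 18S signal, where penicillin chow 1 is the 1 penicillin chow mouse behind each value, it turned for penicillin on chow, Fgf21 0.14, Pdk4 0.45, Cpt1a 0.0393, Hadha -0.00434, Acadm -0.0775 and for high-fat diet in penicillin mice, Cpt1a -0.0546 and for interaction of penicillin and diet, Vnn1 0.34. Without 2 arrays that stand apart it turned for penicillin on high-fat diet, Hadha -0.0131 and for penicillin on chow, Ehhadh 0.0507 and for interaction of penicillin and diet, Hadha -0.0241 and for penicillin averaged over diets, Angptl4 -0.0784, Hadha -0.00102. With the other, dim Angptl4 probe set the direction turned for high-fat diet in penicillin mice, Angptl4 -0.0362. With the brighter other Cpt1a probe set the direction turned for high-fat diet in penicillin mice, Cpt1a -0.054 and for high-fat diet averaged over treatments, Cpt1a -0.0157. Leaving out 1 array turned the direction within these ranges: Fgf21 (penicillin on chow) -0.15 to 0.19, Ehhadh (penicillin on chow) -0.11 to 0.0507, Ehhadh (high-fat diet in control mice) -0.13 to 0.0311, Pdk4 (penicillin on chow) -0.22 to 0.18, Hadha (penicillin on chow) -0.0373 to 0.0357, Acadm (penicillin on chow) -0.0416 to 0.0975, Vnn1 (interaction of penicillin and diet) -0.52 to 0.0272, Hadha (penicillin averaged over diets) -0.00358 to 0.0565, Hadha (interaction of penicillin and diet) -0.019 to 0.10, Angptl4 (penicillin averaged over diets) -0.061 to 0.18, Cpt1a (penicillin on chow) -0.12 to 0.0154, Cpt1a (high-fat diet in penicillin mice) -0.0229 to 0.12, Hadha (penicillin on high-fat diet) -0.0131 to 0.11. Array data give no read depth; Pdk4 on chow is near the filter value, which limits the precision of its fold changes.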

Other observations

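Among the 28 pairs of the 8 genes, deviations from the group means over the 12 arrays gave negative as well as positive correlations. Cpt1a and Ehhadh deviated in opposite directions (r = -0.740), as did Angptl4 and Vnn1 (r = -0.730), while Vnn1 and Acadm deviated together (r = 0.836). Over the 9 arrays outside the penicillin high-fat group these 3 values were -0.750, -0.763 and 0.882. Fgf21 and Hadha also deviated together, at 0.743 over 12 arrays and 0.576 over these 9. The pairs named here were picked from the 28 for their size, and Cpt1a was read from its brightest probe set only. For Fgf21 and Pdk4 the value was 0.809 over 12 arrays and 0.187 over these 9, a comparison chosen after seeing the data. These are descriptions over 12 arrays in 4 groups that were normalized together.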
